A study of Mus musculus with 2 samples.

Results

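The 9 genes described here encode proteins that fuse and divide mitochondria and proteins that mark mitochondria for degradation (mitophagy). They were chosen by gene name from a table of 18467 genes and were all found there: *Mfn1*, *Mfn2* and *Opa1* for fusion, *Dnm1l*, *Fis1* and *Mff* for fission, and *Pink1*, *Bnip3* and *Fundc1* for mitophagy. Expression was measured by RNA sequencing in 1 library of oocytes from conditional knockout mice and 1 library of oocytes from wild type mice, both on the C57BL/6 strain and 2 weeks old. In the knockout, called cKO here, both *Kat8* alleles are flanked by loxP sites (*Kat8* fl/fl) and are cut by Cre recombinase made from *Gdf9*-Cre, a transgene that directs Cre to oocytes, starting in primordial follicles. *Kat8* encodes the acetyltransferase of lysine 16 of histone H4. The labels do not say whether the wild type mice carried Cre or loxP alleles, nor how many mice gave each library.

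Mitochondria form a network whose shape is set by the balance of fusion and fission. The mitofusins MFN1 and MFN2 are GTPases that join outer membranes, and OPA1 is the GTPase that joins inner membranes and shapes the cristae. Fission is carried out by the dynamin-like GTPase DRP1, encoded by *Dnm1l*, which is drawn from the cytosol to the outer membrane by adaptors such as MFF; FIS1 is another outer membrane protein of the fission machinery. Damaged mitochondria are removed either through the kinase PINK1, which accumulates on them and sets off their tagging with ubiquitin, or through receptors in the outer membrane, such as BNIP3 and FUNDC1, that bind the autophagosome directly. Growing mouse oocytes hold many small, round mitochondria, and deletion of *Mfn1* or of *Dnm1l* in mouse oocytes is known to impair follicle growth or oocyte maturation.

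All values are FPKM, fragments scaled by transcript length and library size, so levels can be compared between genes. Log2 ratios set the cKO value over the wild type value after adding 0.1 FPKM to each. Genes that reached 1 FPKM in either library and differed at least 2-fold on that scale were called higher or lower. With 1 library per genotype the differences have no replicate check and no error, the genotype and the library cannot be told apart, and no test was made. *Kat8* itself stood at 0.985 FPKM in the cKO library and at 166 FPKM in the wild type library.

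Oocyte markers summed to 16537 FPKM in the cKO library and 13445 FPKM in the wild type library, far above the sums of markers of other cells. All 12 oocyte markers were detected, at 47.4 FPKM or more in the cKO library and at 19.4 FPKM or more in the wild type library. Of these, 1 was at least 2-fold higher in the cKO and 0 lower, beside 18.2% and 12.2% of all genes tested. It was *Ddx4*, at 57.7 FPKM in the cKO library and 19.4 FPKM in the wild type library. The lowest log2 ratio of the 12 was -0.79, for *Bmp15*. The 12 granulosa cell markers summed to 135 FPKM in the cKO library and 110 FPKM in the wild type library, and 4 of the 11 past 1 FPKM were at least 2-fold higher in the cKO, beside 18.2% of all genes tested. The 9 theca and stroma markers in the table summed to 11.7 FPKM in the cKO library and 2.19 FPKM in the wild type library. Their log2 ratio was above 0 for 9 of 9. Of all genes tested, which had reached 1 FPKM in either library, 46.8% were below 0. That share is of an unlike set, since only 4 of the 9 markers passed 1 FPKM. All 4 were at least 2-fold higher in the cKO. *Cyp17a1* was at 0.944 and *Lhcgr* at 0.0890 FPKM in the cKO library, while in the wild type library *Cyp17a1* was at 0.217 FPKM and *Lhcgr* was listed at 0. The 5 endothelial markers summed to 13.5 FPKM in the cKO library and 12.6 FPKM in the wild type library, most of it *Pecam1*, at 8.14 FPKM in the cKO library and 9.78 FPKM in the wild type library. Among the other endothelial markers, *Cldn5* was 8.59-fold higher, at 2.35 FPKM in the cKO library and 0.274 FPKM in the wild type library. *Cdh5* and *Kdr*, both under 1 FPKM, stood at 0.527 and 0.403 FPKM in the cKO library, against 0.0361 and 0.189 FPKM in the wild type library, and *Tek* had a log2 ratio of -0.17. The 5 blood cell markers summed to 18 FPKM in the cKO library and 62.1 FPKM in the wild type library, nearly all of it haemoglobin, and *Ptprc* was at 0.0340 FPKM in the cKO library and listed at 0 in the wild type library. The part of other cells in the results was not tested, nor whether their markers came from such cells or from oocytes. In such bulk RNA, fewer cells of a type and less RNA per cell cannot be told apart. Judged from genes under 0.6 FPKM, the FPKM value of a single cKO fragment was 1.24 times that of a wild type fragment, so an equal low level rests on fewer fragments in the cKO.

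The promoters of 3 genes are shown because these genes stand at the ends of the results: *Bnip3* is the member with the lowest ratio, *Mfn2* the one with the highest, and *Mfn1* is the close relative of *Mfn2* that differed in the other direction. Each sequence runs 5′ to 3′ on the gene's own strand from 250 bases before to 50 bases after a RefSeq transcription start (GRCm38.p6), at the start nearest to the deposited gene locus. The *Bnip3* window is chr7:138909457-138909756 on the minus strand, that of *Mfn1* chr3:32529232-32529531 on the plus strand, and that of *Mfn2* chr4:147904860-147905159 on the minus strand. The *Mfn2* window is 1 of 3 RefSeq windows of this gene. Starts differ between annotations: the windows of *Mfn2* and *Dnm1l* lie wholly upstream of the GENCODE gene spans given below. The window of *Fundc1* lies wholly inside its span. Capitals mark every CCGCCC (a GC box) and every ACGTG (a form of the core of the hypoxia response element), on either strand.
Bnip3: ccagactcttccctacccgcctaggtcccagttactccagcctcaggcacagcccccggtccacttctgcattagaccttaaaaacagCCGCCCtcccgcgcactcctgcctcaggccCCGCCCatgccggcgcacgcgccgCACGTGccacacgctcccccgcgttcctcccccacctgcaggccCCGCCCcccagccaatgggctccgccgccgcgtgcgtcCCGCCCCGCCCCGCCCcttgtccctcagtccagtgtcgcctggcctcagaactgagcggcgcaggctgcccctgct
Mfn1: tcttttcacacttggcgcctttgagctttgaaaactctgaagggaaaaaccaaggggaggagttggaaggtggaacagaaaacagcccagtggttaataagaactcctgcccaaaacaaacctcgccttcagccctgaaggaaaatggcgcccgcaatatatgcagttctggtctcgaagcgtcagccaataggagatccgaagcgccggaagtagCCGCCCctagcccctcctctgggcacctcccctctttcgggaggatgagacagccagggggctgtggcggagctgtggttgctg
Mfn2: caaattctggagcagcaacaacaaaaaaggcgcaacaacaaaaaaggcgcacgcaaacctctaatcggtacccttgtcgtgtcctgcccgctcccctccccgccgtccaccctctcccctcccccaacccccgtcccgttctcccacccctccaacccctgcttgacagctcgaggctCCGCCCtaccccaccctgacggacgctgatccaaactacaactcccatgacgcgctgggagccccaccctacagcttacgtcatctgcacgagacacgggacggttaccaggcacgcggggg
The *Bnip3* window was the richest in GC of the 9 member windows available, at 71.7% GC with 27 CpG pairs, against medians of 52.7% and 7 over all 32851 RefSeq promoter windows of this length. It held 6 matches to CCGCCC and an ACGTG on each strand, which overlap in a single CACGTG. The *Mfn1* window was at 55.3% GC with 12 CpG pairs and the *Mfn2* window at 62.3% with 22, each with 1 match to CCGCCC. Of all windows, 35.7% held CCGCCC and 19.6% held ACGTG. *Bnip3* was the 1 member of the 9 with ACGTG. The other form of that core, GCGTG, was not searched or marked, and it does occur in other member windows, such as that of *Mfn2*. Both strands were also searched for CCGGAAGT (the ETS motif, in 3.89% of all windows), which was matched once in *Mfn1* and once in *Fis1*, and for the NRF1 motif (0.971%), matched once in *Opa1*. TGACGTCA (the cAMP response element, 1.79%) and TCAAGGTCA (the ERR motif, 0.423%) had 0 matches in these windows. These are matches of letters and not measured binding.

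The fission genes were the most abundant members and the mitophagy genes among the least abundant, in both libraries. *Mff* led at 131 FPKM in the cKO library and 199 FPKM in the wild type library, above 95.9% of all genes in the cKO library and 96.8% in the wild type library. It alone gave 55.6% of the summed FPKM of the 9 genes in the cKO library and 55.4% in the wild type library. *Fis1*, *Dnm1l* and *Mfn1* came next in the same order in both libraries. The places below these differed: *Mfn2* was at place 5 of the 9 in the cKO library and at place 8 in the wild type library, and *Bnip3* was at place 9 in the cKO library and at place 6 in the wild type library. Without replicates it is unknown which neighbours in this order differ beyond error.

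**Figure D1:**
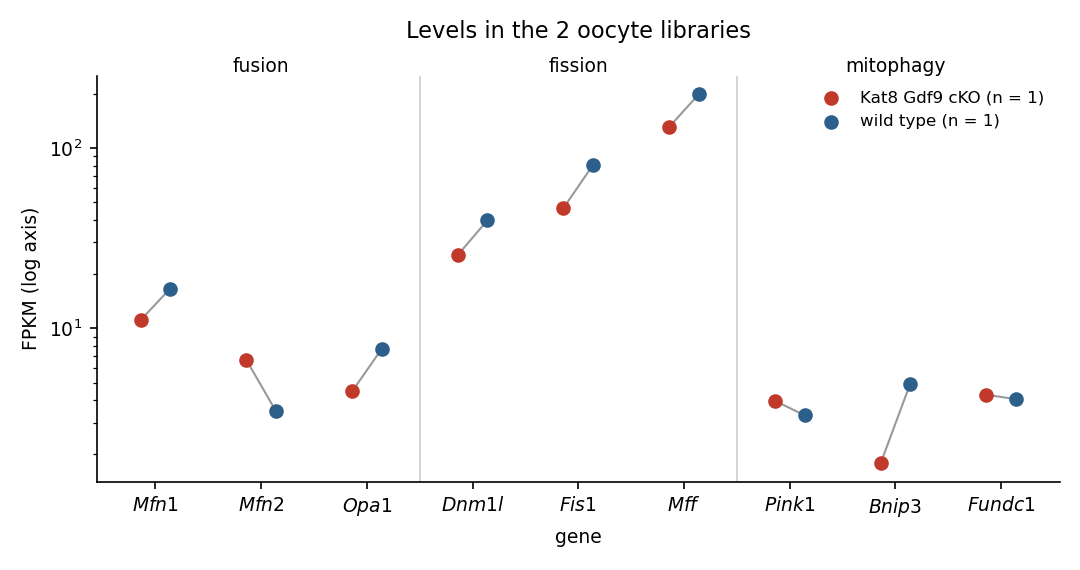
FPKM on a log axis of the 9 genes in the cKO library (red, left) and the wild type library (blue, right), 1 library each, joined by a line and grouped by role. *Mff*, *Fis1* and *Dnm1l* are the highest 3 in both libraries, and *Mfn2* and *Bnip3* have the steepest lines, in opposite directions.

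Of the 9 genes, 6 had a lower value in the cKO library and 3 a higher one, and 1 was past the 2-fold rule. All 9 had reached 1 FPKM in either library. The 1 gene past the rule was *Bnip3*, lower in the cKO, beside 12.2% of all 11816 genes tested that were lower by the same rule. It was no longer called with the length and GC trend removed, with a floor of 5 FPKM or with a 3-fold rule, each of which left 0 members called lower. Members called higher numbered 0, beside 18.2% of all genes. At 1.5-fold, chosen as an alternative size, 5 members were lower, beside 23.2% of all genes, and 1 was higher, beside 29.1%. The median log2 ratio of the 9 genes was -0.61, against 0.06 over all genes, of which 46.8% had a ratio below 0. Of the members, 2 lay between the lower and upper quartiles of all genes, which were -0.54 and 0.73. These quartiles pool all levels, and they differed with the larger FPKM value of a gene. From 1 to 5 FPKM they were -0.51 and 0.98. From 50 to 200 FPKM, the range of *Fis1* and *Mff*, they were -0.58 and 0.41. The summed FPKM of the 9 genes was 235 in the cKO library and 360 in the wild type library.

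**Figure D2:**
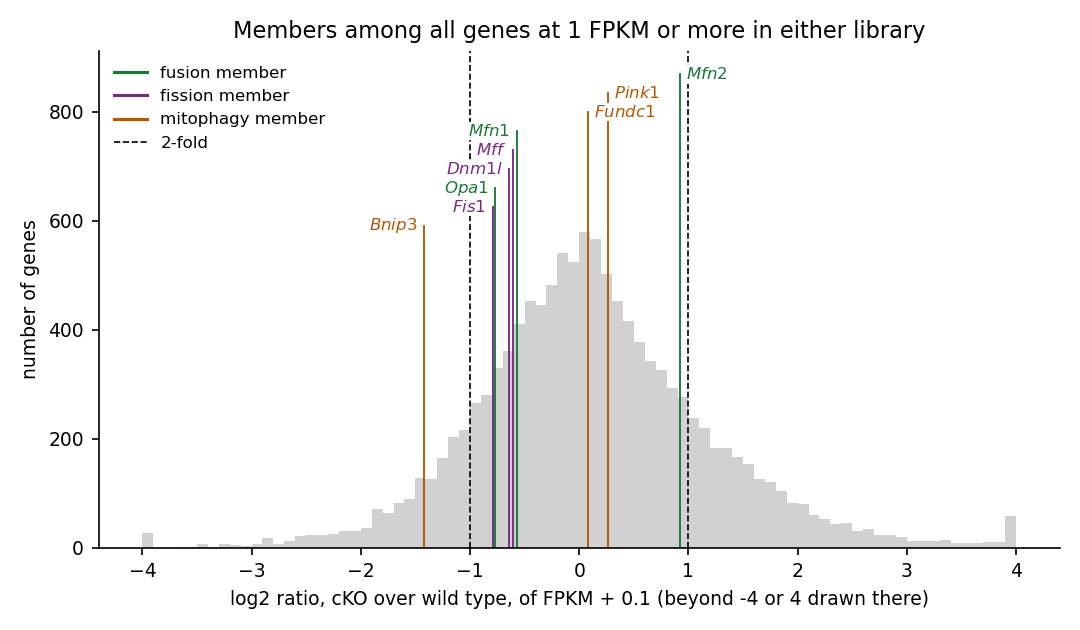
Histogram of log2 ratios (cKO over wild type) for the 11816 genes that reached 1 FPKM, with the 9 members drawn as coloured lines whose height has no meaning. The members run from -1.42 for *Bnip3* to 0.92 for *Mfn2*, and 5 fusion and fission genes sit between -0.79 and -0.57.

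The fusion genes did not share a direction. *Mfn1* (GRCm38 chromosome 3, 32529465 to 32579239, plus strand) stood at 11.1 FPKM in the cKO library and 16.6 FPKM in the wild type library, a log2 ratio of -0.57. *Mfn2* (chromosome 4, 147873599 to 147904704, minus strand) stood at 6.68 FPKM in the cKO library and 3.47 FPKM in the wild type library, 1.92 times as high, a log2 ratio of 0.92 just short of the 2-fold rule. The mitofusin genes thus differed in opposite directions. *Opa1* (chromosome 16, 29579334 to 29654884, plus strand) stood at 4.46 FPKM in the cKO library and 7.67 FPKM in the wild type library, a log2 ratio of -0.77. The summed FPKM of the 3 fusion genes was 22.3 in the cKO library and 27.7 in the wild type library. Scaling mattered for the call on *Mfn2*: it was past the 2-fold rule with FPKM rescaled to TPM, where the same total is given to each library and the median of all genes moves to 0.30 (log2 ratio 1.16, with 23.9% of all genes called higher), and with totals taken without the 50 most abundant genes (1.12, with 22.8% called higher). With the trend on transcript length and GC content removed it was 0.67. *Mfn1* and *Opa1* kept a negative ratio under all 6 other settings, at -0.61 to -0.33 and -0.79 to -0.53.

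Ratios between genes of the same library do not depend on how the libraries are scaled. *Mfn1* stood at 1.67 times the FPKM of *Mfn2* in the cKO library and at 4.78 times in the wild type library. *Mfn2* was above *Opa1* in the cKO library, at 1.5 times its FPKM, and below it in the wild type library, at 0.452 times. *Mfn1* over *Opa1* was closer in both, at 2.5 in the cKO library and 2.16 in the wild type library. The deposited values are per gene, so the splice forms of *Opa1* and *Dnm1l*, whose proteins are processed or used differently, cannot be told apart.

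The 3 fission genes were all lower in the cKO library, by similar factors. *Mff* (chromosome 1, 82724890 to 82752394, plus strand) had a log2 ratio of -0.61, or 0.656 times its wild type FPKM. *Dnm1l* (chromosome 16, 16312230 to 16358959, minus strand) stood at 25.5 FPKM in the cKO library and 39.7 FPKM in the wild type library, a log2 ratio of -0.64. *Fis1* (chromosome 5, 136953275 to 136966234, plus strand) stood at 46.5 FPKM in the cKO library and 80.7 FPKM in the wild type library, a log2 ratio of -0.79. These are differences of less than 2-fold, and 0 of the 3 was past the rule. The proportions among the 3 were nearly the same in both libraries: *Mff* stood at 5.12 times the FPKM of *Dnm1l* in the cKO library and 5.01 times in the wild type library, and *Fis1* at 1.82 times in the cKO library and 2.03 times in the wild type library. All 3 ratios stayed below 0 under the 6 other settings. They lay closest to 0 for *Mff* (-0.30) and *Fis1* (-0.39) with the length and GC trend removed, and for *Dnm1l* (-0.39) with TPM. *Fis1* has the shortest transcript of the members, at 948 bases in the GENCODE M21 annotation. An antisense gene shares 243 exon bases with *Dnm1l* and a noncoding transcript on the opposite strand 195 with *Mff*, and the library kit does not mark strand.

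The summed FPKM of the fission genes was 203 in the cKO library and 320 in the wild type library. The fission sum was 9.1 times the fusion sum in the cKO library and 11.5 times in the wild type library. *Mff* made up 64.4% of the fission sum in the cKO library and 62.3% in the wild type library.

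**Figure D3:**
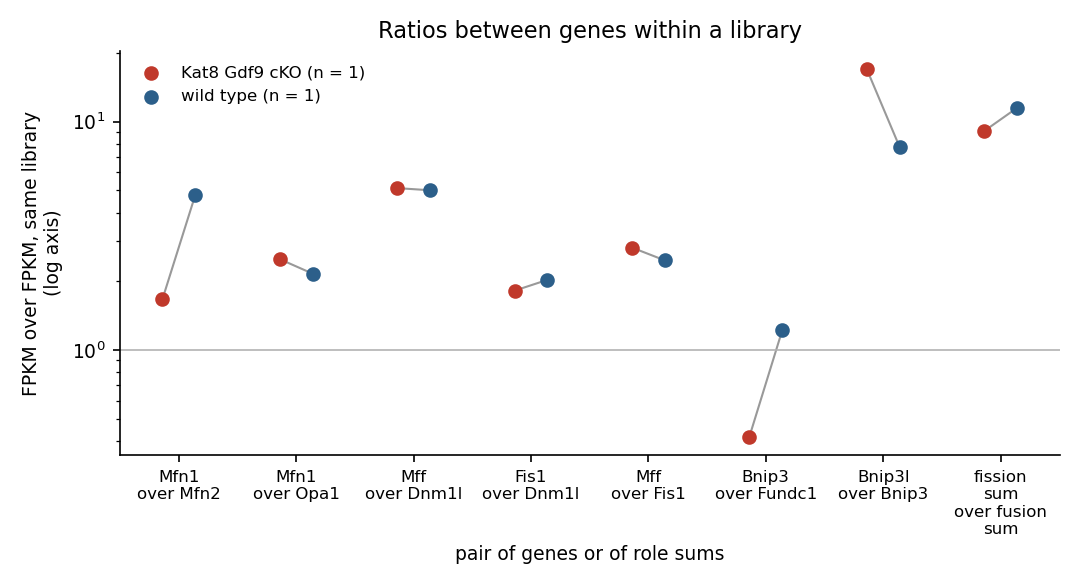
Ratio of the FPKM of 1 gene over another in the same library, on a log axis, in the cKO library (red, left) and the wild type library (blue, right); the last pair is the sum of the fission genes over that of the fusion genes. *Mff* over *Dnm1l* is level at 5.12 and 5.01, while *Mfn1* over *Mfn2* is 1.67 in the cKO and 4.78 in the wild type library.

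The kinase gene *Pink1* was low in both libraries and differed little. *Pink1* (chromosome 4, 138313409 to 138326307, minus strand) stood at 3.96 FPKM in the cKO library and 3.29 FPKM in the wild type library, a log2 ratio of 0.26, which turned to -0.20 with the length and GC trend removed; its transcript is the richest in GC of the members, at 59%.

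Of the receptors, *Bnip3* was lower in the cKO library and *Fundc1* was at about the same level in both. *Bnip3* (chromosome 7, 138890836 to 138909519, minus strand) stood at 1.78 FPKM in the cKO library and 4.93 FPKM in the wild type library, 2.76-fold lower, with a log2 ratio of -1.42. That ratio lies above 6% of all genes tested. *Fundc1* (chromosome X, 17556564 to 17572325, minus strand) stood at 4.28 FPKM in the cKO library and 4.04 FPKM in the wild type library, a log2 ratio of 0.08. *Bnip3* over *Fundc1* was 0.417 in the cKO library and 1.22 in the wild type library, so their order was exchanged. The call on *Bnip3* ended with the length and GC trend removed, where its log2 ratio was -0.88 and 10.1% of all genes were called lower, and *Fundc1* then had a log2 ratio of 0.60. It also ended with a floor of 5 FPKM, which its 4.93 FPKM did not reach, and with a 3-fold rule. An antisense gene, *Gm45507*, shares 504 exon bases with *Bnip3*, 22.3% of its exon sequence, and its fragments cannot be separated from those of *Bnip3* without strand. The relative *Bnip3l* (NIX), a mitophagy receptor known for clearing mitochondria from maturing red cells, was far more abundant, at 30.4 FPKM in the cKO library and 38.2 FPKM in the wild type library. *Bnip3l* stood at 17 times the FPKM of *Bnip3* in the cKO library and 7.75 times in the wild type library.

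**Figure D4:**
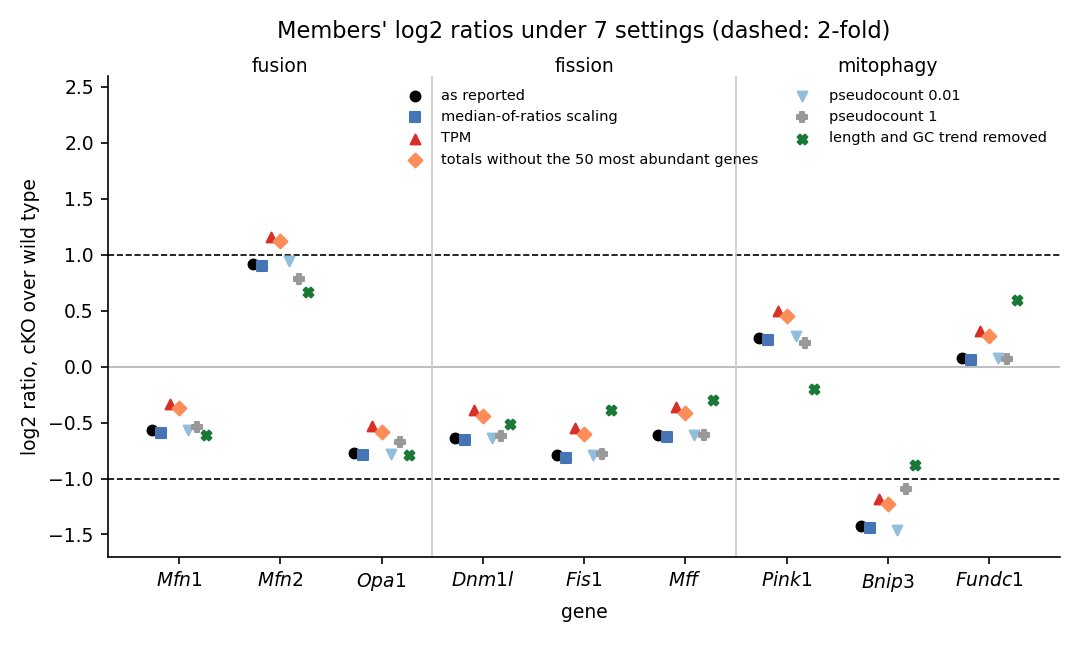
Log2 ratios (cKO over wild type) for the 9 genes under the reported setting and 6 others, each setting with its own marker; dashed lines are 2-fold. The sign of 8 genes stays the same under all 7 settings, and *Pink1* turns negative with the length and GC trend removed; *Mfn2* and *Bnip3* are the genes that cross a 2-fold line.

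The wider machinery around these genes was described with 5 lists, which hold 80 genes in the table beside the 9, of which 74 reached 1 FPKM in either library. Of these, 10 were at least 2-fold higher in the cKO library, 3 at least 2-fold lower and 61 neither, beside 18.2% and 12.2% of all genes by the same rule. Their median log2 ratio was 0.04, against 0.06 over all genes. Most genes of the lists, like 8 of the 9 members, differed by less than 2-fold. With the length and GC trend removed 5 were higher and 2 lower, beside 16.7% and 10.1% of all genes.

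Among 13 genes of the fusion machinery and its processing past 1 FPKM, 1 was higher, 1 lower and 11 neither. By the same rule 18.2% of all genes were higher and 12.2% lower. The median log2 ratio of the 13 was -0.07. *Pld6*, the mitochondrial phospholipase that promotes fusion and also serves the piRNA pathway, stood at 10.9 FPKM in the cKO library and 3.98 FPKM in the wild type library. *Stoml2*, a scaffold protein of the inner membrane, stood at 26.2 FPKM in the cKO library and 55.7 FPKM in the wild type library. The proteases that cut OPA1 differed by less than 2-fold: *Oma1* stood at 36.2 FPKM in the cKO library and 31.4 FPKM in the wild type library, and *Yme1l1* at 3.75 FPKM in the cKO library and 2.54 FPKM in the wild type library.

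Among 17 fission adaptors and regulators past 1 FPKM, 3 were higher, 0 lower and 14 neither, beside 18.2% and 12.2% of all genes. Their median log2 ratio was 0.19, against 0.06 over all genes and -0.64 for the 3 fission members. *Mtfr2*, a mitochondrial fission regulator, had the largest ratio of all 80 genes, at 69.2 FPKM in the cKO library and 9.76 FPKM in the wild type library, 7.09-fold higher. *Mief2*, an outer membrane receptor of DRP1, stood at 1.9 FPKM in the cKO library and 0.694 FPKM in the wild type library. Its relative *Mief1* stood at 7.56 FPKM in the cKO library and 6.15 FPKM in the wild type library, a log2 ratio of 0.29. *Slc25a46*, an outer membrane protein of the carrier family that acts in mitochondrial dynamics, stood at 2.83 FPKM in the cKO library and 1.04 FPKM in the wild type library.

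Among 23 genes of the PINK1 arm of mitophagy past 1 FPKM, 3 were higher, 2 lower and 18 neither, with a median of -0.04. Of all genes, 18.2% were higher and 12.2% lower. The higher genes were *Usp35*, a deubiquitinase, at 18.6 FPKM in the cKO library and 4.56 FPKM in the wild type library; *Hspa9*, the mitochondrial HSP70 chaperone, at 126 FPKM in the cKO library and 60.3 FPKM in the wild type library; and *Rhot2*, which encodes the transport adaptor MIRO2, at 16.5 FPKM in the cKO library and 7.45 FPKM in the wild type library. The lower genes were *Park7* (DJ-1, a redox-sensitive protein), at 110 FPKM in the cKO library and 241 FPKM in the wild type library, and the polyubiquitin gene *Ubb*, at 712 FPKM in the cKO library and 2678 FPKM in the wild type library. Ubiquitin genes share sequence with each other and with pseudogenes, so the assignment of reads to *Ubb* is uncertain.

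Among 15 genes of receptor-mediated mitophagy past 1 FPKM, 1 was higher, 0 lower and 14 neither, beside 18.2% and 12.2% of all genes. The median of the 15 was 0.03. *Ambra1*, an autophagy regulator, stood at 31.4 FPKM in the cKO library and 14.6 FPKM in the wild type library. The 11 genes of mitochondrial transport and positioning had a median of 0.06. Of these, 3 were higher, 0 lower and 8 neither, beside the same shares of all genes. Besides *Rhot2* these were *Cluh*, which encodes an RNA-binding protein for mRNAs of mitochondrial proteins, at 7.35 FPKM in the cKO library and 3.3 FPKM in the wild type library, and *Trak2*, a motor adaptor, at 2.24 FPKM in the cKO library and 1.07 FPKM in the wild type library, which just reached the rule at a log2 ratio of 1.00.

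**Figure D5:**
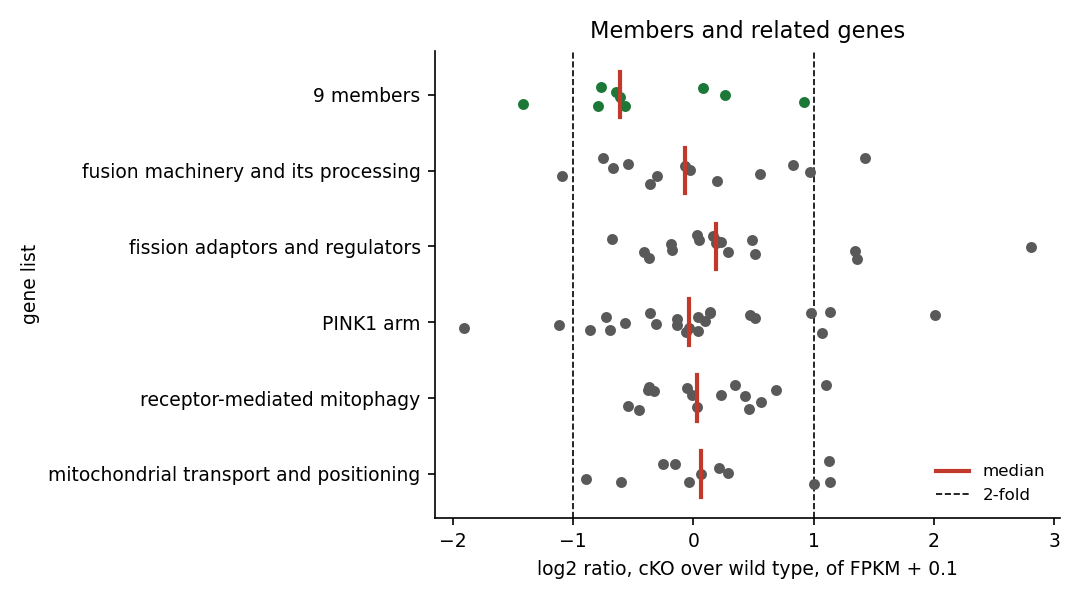
Log2 ratios (cKO over wild type) for the 9 members (green) and for the genes of the 5 related lists past 1 FPKM (grey; a gene on 2 lists is drawn in each), with each list's median in red and 2-fold as dashed lines. The median of the members lies at -0.61 and those of the lists between -0.07 and 0.19, and *Mtfr2* stands farthest right.

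The authors' deposited table calls none of the 9 genes changed: 0 of them is in the deposited lists of 500 higher and 358 lower genes. The lowest p-values of the members in the authors' deposited table were 0.0237 for *Mff* (FDR 0.208) and 0.0414 for *Fis1* (FDR 0.318), and those of *Bnip3* and *Mfn2* were 0.465 and 0.365. Fisher's exact test on the FPKM values rounded up to whole numbers, as if they were counts, gave the deposited p within 0.001 for 17813 of 18467 genes, 9 of the 9 members among them. Of the 9511 genes whose deposited p was under 0.9, Fisher's exact test gave it within 0.001 for 8897, or 93.5%. For the genes that matched, the 9 members among them, the p-value therefore follows FPKM and not the number of fragments. The deposited p-value compares 2 libraries, not 2 genotypes. Every gene in the authors' deposited list of higher genes reached at least 9.42 FPKM in its larger library, and in the list of lower genes at least 13.5 FPKM. *Mfn2*, *Opa1*, *Pink1*, *Bnip3* and *Fundc1*, 5 of the 9 genes, lay under both values. Of the related genes, the authors' deposited lists hold *Mtfr2*, *Usp35*, *Hspa9* and *Ambra1* as higher and *Park7* and *Ubb* as lower.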

How the data were processed

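Oocyte RNA was isolated with Trizol and turned into libraries with a TruSeq RNA kit, per the labels' protocols. Reads were aligned with Bowtie 0.12.2 to the mouse build mm10, per the submitters' processing notes. How fragments were assigned to genes and which test was used are not given in the sources used here. The authors deposited 1 FPKM value per gene and library, the fold of the KO over the NC column, a p-value and an FDR, per the file headers. The KO column was read as the cKO library, which leaves the NC column for the wild type. The authors wrote 0 as 1e-05. A single emptied line and 1 gene given by the selection rule are not reported here. Total fragments are unknown, so no counting interval is given.

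Log2 ratios were computed with a pseudocount of 0.1, with Python 3.11.15, numpy 2.4.6, pandas 2.3.3 and scipy 1.17.1, and the calculation was tested on simulated data. For the 2-fold rule, changes larger than any member's were planted in genes at 5 FPKM or more, at an assumed depth. The simulation therefore cannot judge the calls on genes as low as *Bnip3* and *Mfn2*. GENCODE M21, on the same assembly as mm10 (GRCm38), gave gene positions, and transcript length and GC content for 17349 genes joined on gene ID; promoters came from RefSeq, for all 9 members. The 9 genes, the 5 lists and the markers were chosen with earlier results of these data known. Named genes are the members, 6 fixed relatives, and all genes past the 2-fold rule of lists with 6 or fewer of these. No gene is named for a pattern like a member's, since over 2 libraries any genes correlate fully. *Mief1* and *Mief2* were found by gene ID.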

Additional observations from a re-analysis of the deposited data

How the results depend on the processing

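No paired analysis was possible because each genotype has 1 library. Of 10 alternatives, 6 change the ratios, and under these the fusion and fission medians and 8 of the 9 members kept their direction. With TPM, the medians were -0.33 for fusion, -0.39 for fission, 0.32 for mitophagy (0.08 as reported) and 0.28 for the related genes; members called higher numbered 1 and related genes called lower 1. With totals without the 50 most abundant genes these were -0.37, -0.44, 0.27, 0.23, 1 and 1. These scalings move the median of all genes to 0.30 and 0.26, and genes called higher to 74.7% and 72.1% of those called, from 59.8%. Of all 11816 genes, they called 2829 and 2697 higher and 958 and 1042 lower. As reported, 2149 were higher and 1442 lower. With the length and GC trend removed, the medians were -0.39 for fission and -0.20 for mitophagy (reversed), and *Pink1* reversed to -0.20. The cause was not tested. Members called lower numbered 0 and related genes called higher 5, beside 10.1% lower and 16.7% higher among all 11396 genes. With a pseudocount of 1, related genes called higher numbered 6, beside 1505 of all 11816 genes. With a floor of 5 FPKM, members called lower numbered 0, since *Bnip3* is below it, beside 953 of all 8158 genes. With a 1.5-fold rule, members called higher numbered 1 and lower 5, and related genes lower 11. Of all genes, 29.1% were then higher and 23.2% lower. With a 3-fold rule, members called lower numbered 0, related genes higher 2 and lower 1. Of all 11816 genes, 1019 were then higher and 530 lower. Total fragments are unknown, so the counting error of the low members cannot be given.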

Other observations

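Some further genes of mitochondrial shape and turnover, chosen after their values were seen, belong to no list above or were not past the 2-fold rule. *March5*, which encodes the outer membrane ubiquitin ligase MITOL and whose name had been turned into a date in the table, stood at 96.6 FPKM in the cKO library and 92.7 FPKM in the wild type library, a log2 ratio of 0.06. *Akap1*, which encodes the anchor of protein kinase A at the outer membrane, stood at 133 FPKM in the cKO library and 94.7 FPKM in the wild type library, a log2 ratio of 0.49. *Fundc2*, a relative of *Fundc1*, was under 1 FPKM, at 0.115 FPKM in the cKO library and 0.387 FPKM in the wild type library. *March5* and *Akap1* thus stood above *Fis1* and *Dnm1l* in both libraries.

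From 1 to 200 FPKM, the share of genes past the 2-fold rule on the higher side was smaller at higher levels. The share on the lower side had no steady trend over this range. Genes whose larger value was 200 FPKM or more were left out of these shares, so nothing is said about them. Among 3658 genes whose larger value was from 1 to 5 FPKM, the range that holds *Bnip3*, *Pink1* and *Fundc1*, 24.3% were higher and 13.4% lower in the cKO library. Among 1951 genes from 5 to 10 FPKM, the range of *Mfn2* and *Opa1*, 21.7% were higher and 11.2% lower. Among 3963 genes from 10 to 50 FPKM, the range of *Mfn1* and *Dnm1l*, 16.8% were higher and 10.5% lower. Among 1606 genes from 50 to 200 FPKM, the range of *Fis1* and *Mff*, 9.4% were higher and 11.8% lower.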
